A study of Mus musculus with 28 samples.

Results

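Lung metastases were compared with primary mammary tumors of the same mouse model on whole-tissue expression arrays. The comparison takes the 20 arrays whose source label is lung metastasis (LungMets, 9 arrays) or primary tumor (PT, 11 arrays), out of 28 arrays in the series. Normal lung parenchyma (NL, 3 arrays) and normal mammary gland (NMG, 3 arrays) of healthy Balb/C nude mice serve as levels only, as do cultures of the tumor line, with 1 array of a monolayer and 1 of 3D spheres. Every measured gene was tested, and the genes that differed were then set apart by their level in NL. All mice were female Balb/c athymic nude mice, which lack mature T cells. The methods give an age of 8 weeks for the animals of the study, without saying whether at injection or at collection. For the mice of NL and NMG they give a range up to 8 weeks. The tumors were grown from JygMC(A), a murine breast cancer line whose tumors seed the lung spontaneously, by placing 50000 cells in mammary glands on both sides. The labels list no treatment for any sample, and the methods mention isoflurane, a local analgesic and luciferin for imaging. Per the labels PT were taken on day 30 and LungMets on day 50 after a subcutaneous injection, while the methods describe the mammary fat pad, a GFP and luciferase reporter in the cells and the removal of the primary tumors before the lungs were collected. Site, day, any difference in age and the state of the host after surgery therefore cannot be told apart in this comparison. All tumors come from 1 cell line. The labels speak of biological replicates but name no animal, and the methods describe 1 or 2 fragments from each of 8 mice, so that some arrays may share a mouse and p-values measure the spread between samples.

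The alveoli of the lung are lined by flat type 1 cells, across which gas is exchanged, and by type 2 cells, which make surfactant. The airways are lined by club cells, which secrete the protein encoded by Scgb1a1, and by ciliated cells. A dense capillary bed and resident alveolar macrophages lie around them, and a breast cancer cell that settles in the lung grows among all of these. A dissected nodule thus carries RNA of the tumor cells, of the stroma and immune cells they recruit, and of the lung around them. A whole-tissue array reads their sum, and fewer cells of a type and less RNA per cell cannot be told apart in it.

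Values are log2 signals as deposited, so that a difference of 1 is a 2-fold change. The 27 measured marker genes of type 2, type 1 and club cells were averaged on each array as a check of the labels. Their mean was 5.48 to 6.57 on 10 PT arrays, with a median of 5.67 over all 11, and 8.91 to 10.36 on 8 LungMets arrays, with a median of 9.69 over all 9. It was 11.48 to 11.53 in NL, 5.95 to 7.06 in NMG, 5.29 in the monolayer and 5.43 in the spheres. PT 5 stood at 9.41, among the LungMets arrays, and LungMets 9 stood at 6.28, among the PT arrays. LungMets 5 lay close to PT 5, at 9.40 here. Its type 2 cell genes averaged 10.42, as on PT 5, its endothelial genes 8.03 against 8.02, and its adipocyte genes 5.38 against 5.47. Whether PT 5 and LungMets 5 share a specimen was not tested. Over all genes PT 5 correlated at 0.989 with the mean of LungMets and at 0.968 with the mean of the other PT, and LungMets 9 correlated at 0.983 with the mean of PT and at 0.963 with the mean of the other LungMets. Each of the other 18 arrays was nearer to its own group. Both arrays come from the second of the 2 dates given in the labels for these groups. Epidermal genes averaged 7.81 on LungMets 9 and 7.78 on PT 2, against 4.66 to 4.98 on the other 8 LungMets arrays. The 2 arrays are kept in the comparison as labelled, and results are given with and without them.

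**Figure D1:**
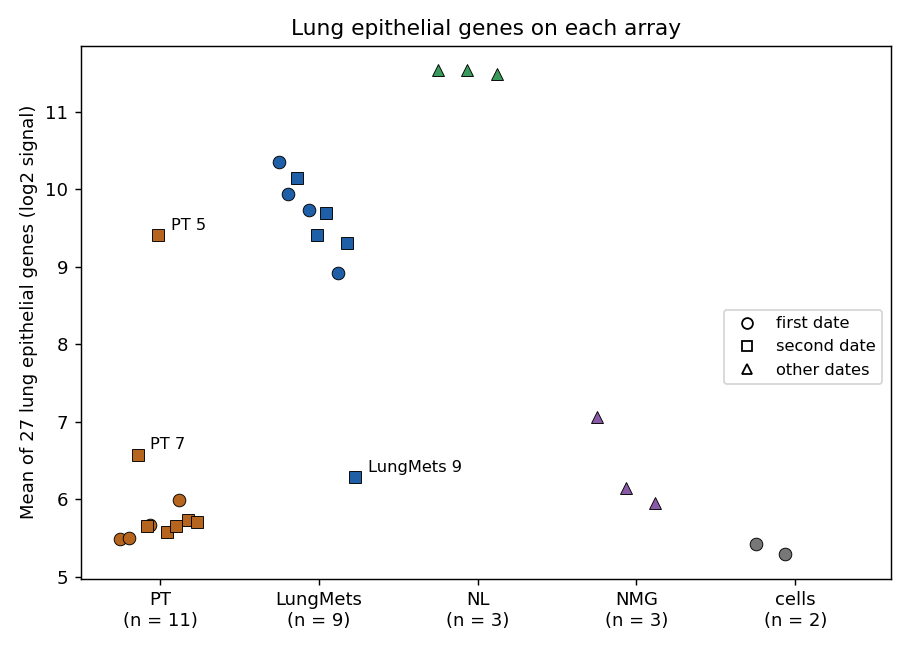
Mean log2 signal of 27 marker genes of alveolar type 2, alveolar type 1 and club cells (vertical axis), 1 point per array, by group, with the shape giving the date of the labels. PT 5 at 9.41 and LungMets 9 at 6.28 lie with the other group, and the other LungMets arrays at 8.91 to 10.36 lie between PT and NL.

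Between LungMets and PT, 1336 of 18194 genes were higher and 725 lower in LungMets at an adjusted p under 0.05, from limma with the date as a block and Benjamini-Hochberg adjustment over all genes. These are 7.34% and 3.98% of the genes tested, and every one of them had the same sign at both dates. Of all 18194 genes 12656 did. The calls were made on both dates together, so that this agreement is no separate support. Over 2-fold, 487 genes were higher (2.68%) and 43 were lower (0.236%). The median difference over all genes was -0.02. Centring each array on its median moved the split to 1177 higher and 1145 lower, from 64.8% to 50.7% higher. Without PT 5 and LungMets 9 the test called 1726 genes higher (9.49%) and 1311 lower (7.21%), among them 1301 of the 1336 and 691 of the 725. The first date alone gave 1393 calls. The second date alone gave 0, with 2670 genes at an unadjusted p under 0.05, and gave 1081 once PT 5 and LungMets 9 were left out. A test of whether the difference itself changed between dates found 0 genes in limma, with or without these 2 arrays. Leaving out LungMets 7 lowered the calls to 1372, with 397 lower, and leaving out LungMets 1 left 482 lower. On LungMets 7 erythrocyte genes averaged 7.54, against 4.11 to 5.87 on the other LungMets, neutrophil genes averaged 7.49 against 5.73 to 6.51, and proliferation genes 8.11 against 8.90 to 9.35. The part of these 3 arrays in single results was not tested beyond the values without them.

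Most rises were of genes with a higher level in normal lung than in PT. Of the 1336 genes called higher, 1125 (84.2%) had an NL mean at least 1 above the PT mean, 197 (14.7%) lay between, and 14 (1.05%) had an NL mean at or below the PT mean. Over all genes these shares were 13.3%, 30.8% and 55.9%. Of the 487 rises over 2-fold, 480 were NL-high and 0 were not higher in NL. The mean of LungMets lay above the mean of NL for 76 of the rises (5.69%), and above it by 1 or more for 4. Falls were split more evenly. Of the 725 genes called lower, 334 (46.1%) had an NL mean at least 1 below the PT mean, 354 (48.8%) lay between, and 37 (5.1%) were not lower in NL. Over all genes the shares were 10.2%, 45.8% and 44.1%. NL minus PT and LungMets minus PT share the PT arrays, so that the classes are counts fixed by rule and no test was made on them. NL was also run on a date of its own, and its date cannot be told apart from its tissue.

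**Figure D2:**
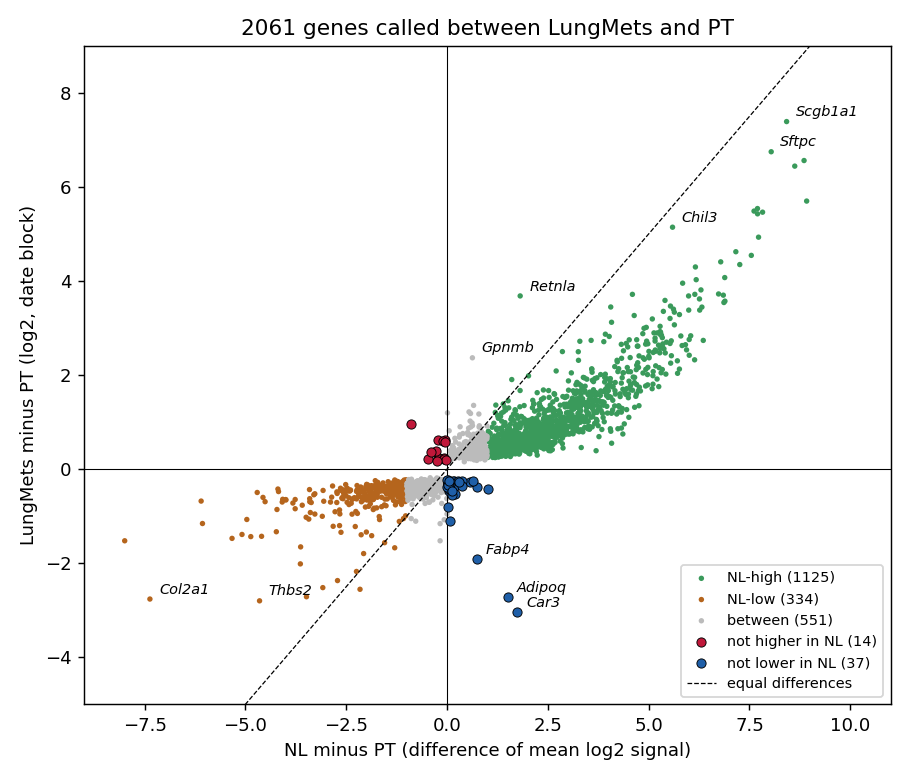
Each point is 1 of the 2061 genes called between LungMets and PT, with NL minus PT in mean log2 signal on the horizontal axis, LungMets minus PT in log2 on the vertical axis and the class by colour. The 1125 NL-high rises lie mostly below the line of equal differences, Retnla and Gpnmb lie above it, and the 37 falls that were not lower in NL include Car3, Adipoq and Fabp4. Both axes share the PT arrays.

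Among the largest rises were secreted products of the airway and alveolar epithelium and a cytochrome P450 of club cells. The genes of club cells rose in 6 of 8 measured members (median difference 3.44), those of type 2 cells in 8 of 9 (median 3.19) and those of type 1 cells in 8 of 10 (median 2.59). All 22 that rose were NL-high. Scgb1a1, which encodes the main secretory protein of club cells, gave 3.05 to 13.33 on the PT arrays (median 5.16), 9.19 to 14.36 on the LungMets arrays (median 13.56) and 14.28 to 14.36 in NL. The difference was 7.39 (standard error, SE, 1.20, adjusted p = 0.00133, limma), and 8.63 without PT 5 and LungMets 9. The highest PT array was PT 5, and 7 of 9 LungMets arrays lay above it, all but LungMets 9 and LungMets 6. PT 7, at 10.76, and PT 3, at 7.98, were the next highest PT arrays, and 1 NMG array reached 11.51. Cyp2f2, the cytochrome P450, rose by 5.70 (SE 0.962), and Scgb3a2, another secretoglobin, by 5.54 (SE 0.886). Reg3g and Bpifa1 did not pass the test, with differences of -0.04 and 1.00.

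Surfactant genes rose with them. Sftpc, the surfactant protein that only type 2 cells make, gave 4.41 to 13.17 on the PT arrays (median 4.77), 8.49 to 13.90 on the LungMets arrays (median 13.48) and 14.19 to 14.29 in NL. Its difference was 6.75 (SE 1.04, adjusted p = 0.00133, limma). LungMets 9 lay below PT 5 and PT 7 (9.48), and the other LungMets arrays lay at 13.05 to 13.90, above PT 7 and below NL. Sftpa1 rose by 6.56 (SE 1.03) and Sftpd by 5.49 (SE 0.845); both encode surfactant collectins of innate defence. Slc34a2, the phosphate transporter of type 2 cells, rose by 4.41 (SE 0.741). Cxcl15, a chemokine of the lung epithelium, gave 3.12 to 11.13 on the PT arrays (median 3.64), 4.29 to 12.76 on the LungMets arrays (median 11.77) and a mean of 13.13 in NL, with a difference of 6.44 (SE 1.04). Etv5, a transcription factor that type 2 cells share with other tissues, did not pass the test (0.23).

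Among type 1 cell genes, Ager, the receptor for advanced glycation end products that is abundant on these cells, gave 4.91 to 11.85 on the PT arrays (median 5.43) and 6.64 to 12.85 on the LungMets arrays (median 12.55). Its difference was 5.46 (SE 0.866, adjusted p = 0.00133, limma), with 6 of 9 LungMets arrays above the highest PT array. Cldn18, a tight junction protein, rose by 4.35, Akap5, an anchoring protein, by 3.40, and Hopx, a homeodomain protein, by 3.38. Ciliated cell genes rose in 11 of 12 members, and here the median difference was only 0.65. Dynlrb2, a dynein light chain, gave 2.95 to 7.03 on the PT arrays (median 3.21) and 4.02 to 8.23 on the LungMets arrays (median 7.34), a difference of 3.47 (SE 0.520). Tppp3 rose by 1.84 and Tmem212 by 1.59. All 11 were NL-high.

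Transcription factors that pattern the lung rose in 8 of 10 members (median 1.75). Tcf21, a factor of the lung mesenchyme, gave 3.29 to 7.25 on the PT arrays (median 3.59), 4.00 to 9.29 on the LungMets arrays (median 8.13) and a mean of 10.74 in NL. Its difference was 3.73 (SE 0.577, adjusted p = 0.00133, limma), and 7 of 9 LungMets arrays lay above the highest PT array. Tbx4 rose by 3.07, Tbx2 by 2.53 and Foxa2 by 2.05, while Nkx2-1, the factor that specifies lung epithelium, rose by 0.33. The monolayer and the spheres held Tcf21 at 3.37 and 3.78, within its range on the PT arrays. Endothelial genes rose in 17 of 20 members (median 1.54). Vwf, the von Willebrand factor of endothelium, gave 3.92 to 8.19 on the PT arrays (median 4.48) and 5.42 to 10.51 on the LungMets arrays (median 8.40), a difference of 3.36 (SE 0.567). Pecam1, the junction protein CD31, rose by 1.71 (adjusted p = 0.00931), Lyve1, a hyaluronan receptor of lymphatic and some blood vessels, by 2.50 (SE 0.451) and Tek, the angiopoietin receptor, by 2.41 (SE 0.512). Flt1, Emcn and Erg did not pass the test, with differences of 0.53, 0.20 and -0.28. Over all genes 7.34% were called higher and 3.98% lower. Cardiac muscle genes, which the walls of the mouse lung veins express, passed in 0 of 11 members. Their mean reached 6.74 on LungMets 4 and 6.24 on LungMets 1, against 4.37 to 5.33 on the other LungMets and 8.15 to 8.73 in NL.

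Pathway genes that rose were in most cases also higher in normal lung than in PT. With 7.34% of all genes called higher, a few rises in lists of this size describe single genes and not the lists. Of 18 genes of the TGF-beta and BMP lists, 3 rose, Bmp4, a secreted ligand (2.67, SE 0.430), Tgfbr2, the type 2 receptor (0.58, SE 0.185), and Id4, an inhibitor of bHLH factors (0.44, SE 0.120). Of 13 Notch genes, 2 rose, the ligand Dll4 of endothelial tips (0.83, SE 0.167) and the target Heyl (0.54, SE 0.0943). Of 15 Wnt feedback genes and antagonists, 3 rose, Nkd1 (2.56, SE 0.485) and Axin2 (0.68, SE 0.159), which are both induced by and dampen Wnt signals, and the secreted antagonist Frzb. Without PT 5 and LungMets 9 the Wnt list also had 2 falls, and at the first date alone the Notch list had 0 rises and the other 2 lists 1 each. Of 19 basement membrane and integrin genes 5 rose, with Lama3, a laminin chain of epithelia, at 2.12 and Itgb6, an integrin chain that activates TGF-beta, at 1.69, while Itgb4, the integrin of hemidesmosomes, fell by 0.55. Of the 2 Lama3 probe sets 1 rose, and of the 3 Tgfbr2 probe sets 2 did. All 13 of these rises were NL-high but Heyl, which lay between, and Frzb, which was not higher in NL. Milk protein genes gave 1 call of 9, Muc1, a mucin (3.27, SE 0.551), which was also NL-high with a mean of 10.07 there.

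A smaller set of rises took the LungMets mean beyond the mean of both PT and NL. Of the 487 rises over 2-fold, 11 did so: Retnla, Gpnmb, Tc2n, Lrg1, Cxcl17, Rsad2, Mmrn1, Esm1, Mmp8, Cd300lf and Eln. This set was chosen after its values were seen. Retnla, a resistin-like protein made by alternatively activated macrophages and by lung epithelium, gave 5.66 to 11.34 on the PT arrays (median 6.28), 7.11 to 11.71 on the LungMets arrays (median 11.10), and 9.28, 8.50 and 8.39 in NL. The difference from PT was 3.68 (SE 0.644, adjusted p = 0.00148, limma), and 4.56 without PT 5 and LungMets 9. All LungMets arrays but LungMets 9 lay above every NL array, and PT 5 was the only PT array above 7.55. NMG held it at 8.43, 9.87 and 11.10. Without LungMets 9 the lowest LungMets value was 10.31, and of the NMG values only 11.10 lay in that range.

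Gpnmb, a glycoprotein of macrophages and of some tumor cells, gave 5.41 to 9.40 on the PT arrays (median 5.99), 6.32 to 9.65 on the LungMets arrays (median 8.95), and 6.94, 6.98 and 6.79 in NL. Its difference was 2.37 (SE 0.480, adjusted p = 0.00383, limma). Again 8 of 9 LungMets arrays lay above the highest NL array. The cultured cells held Gpnmb at 7.73 as a monolayer and at 11.32 as spheres. Esm1, a proteoglycan of activated endothelium, rose by 1.20 (SE 0.331), with 7 of 9 LungMets arrays above the highest NL array. Tc2n rose by 1.91 (adjusted p = 0.0166), also with 7 of 9, and Lrg1, a secreted glycoprotein, by 1.36 (SE 0.381), with 5 of 9. Eln, which encodes elastin, rose by 1.02 (SE 0.314), by 1.94 at the first date and 0.40 at the second.

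Several genes of myeloid cells were among the rises. Chil3, a chitinase-like protein of alveolar macrophages and neutrophils, gave 2.64 to 9.02 on the PT arrays (median 3.46), 3.78 to 11.56 on the LungMets arrays (median 9.43), and a mean of 9.44 in NL. Its difference was 5.14 (SE 0.907, adjusted p = 0.00153, limma), the largest of the 3 alveolar macrophage genes that rose out of 6, with Itgax (1.30, SE 0.300) and Siglecf (0.99, SE 0.237). Of 10 neutrophil genes 3 rose: S100a8 by 2.87 (SE 0.569), S100a9 by 2.71 (SE 0.594) and Csf3r, the receptor for granulocyte colony-stimulating factor, by 0.92 (SE 0.156). S100a8 gave 4.08 to 8.66 on the PT arrays (median 6.46) and 7.95 to 11.90 on the LungMets arrays (median 8.87), with LungMets 7 as the highest. Mmp8, the collagenase of neutrophils, rose by 1.18 (SE 0.203), and 4 of 9 LungMets arrays lay above the NL range. Of 14 general macrophage genes 2 rose, Lyz2 (1.23, SE 0.233) and Gpnmb, and the median difference of that list was 0.17. Over all genes 7.34% were called higher. The macrophage list averaged 7.54 to 8.55 on the PT arrays, 8.00 to 8.80 on the LungMets arrays and 7.49 to 7.88 in NL. All 9 LungMets arrays thus held this list above NL, and PT and LungMets overlapped.

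**Figure D3:**
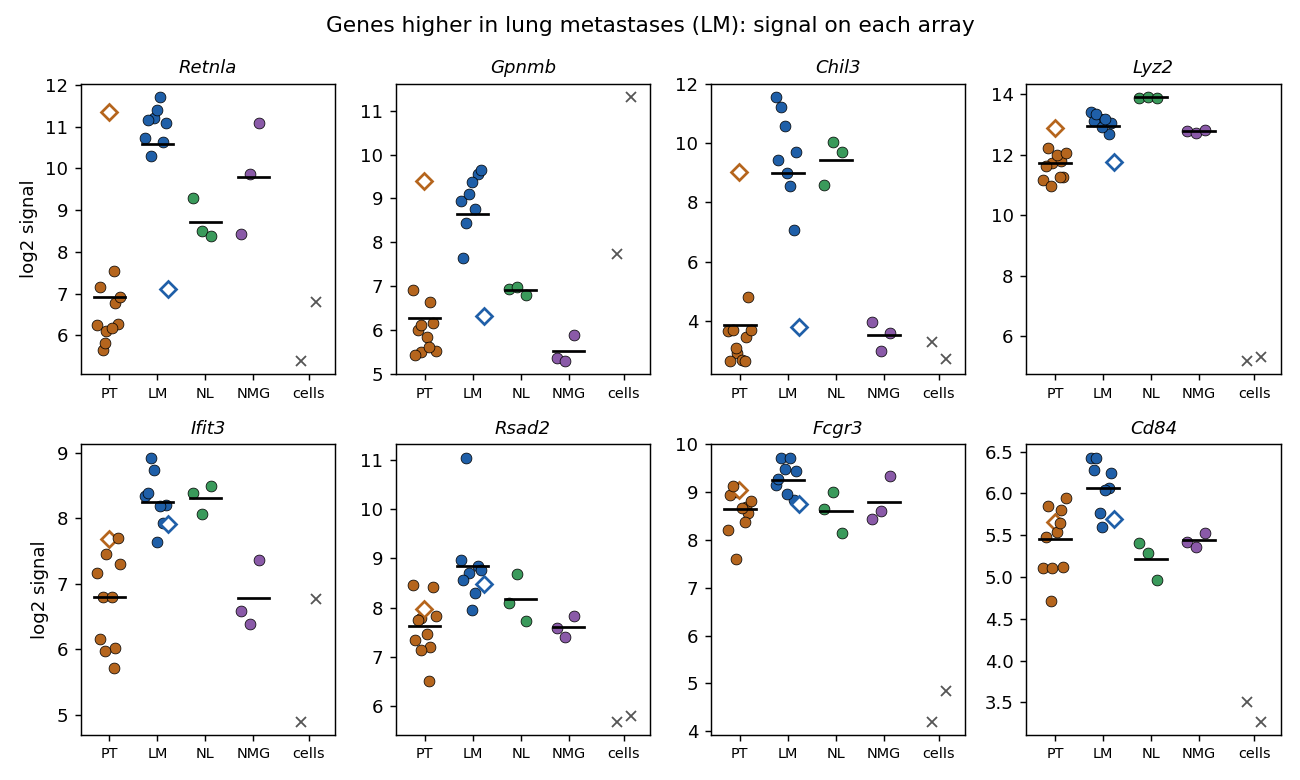
Log2 signal (vertical axis) on each array for 8 genes called higher in LungMets (LM), with 1 point per array, a bar at the group mean, open diamonds for PT 5 and LungMets 9 and crosses for the monolayer (left) and spheres (right). Retnla and Gpnmb lie above NL on 8 of 9 LungMets arrays, Lyz2 lies below NL on all 9, and PT 5 lies with LungMets for the upper row.

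The 14 rises that were not higher in NL were small. They ranged from 0.18 to 0.95 (median 0.30), 9 of them were under 0.5, and 10 of them were also called without PT 5 and LungMets 9. They are Clca3a1, Fcgr3, Cd84, Frzb, Tlr13, Gm38983, Spink2, Akr1c12, Gm5142, Dnaic2, Kif17, Mapk8ip2, Prdm14 and Trpa1, named after their values were seen because no such rise exceeded 2-fold. Frzb is also a called member of the Wnt list. At least 3 of them encode receptors of immune cells. Fcgr3, an activating Fc receptor of myeloid and natural killer cells, gave 7.61 to 9.13 on the PT arrays (median 8.70), 8.75 to 9.73 on the LungMets arrays (median 9.29) and a mean of 8.60 in NL. The difference was 0.62 (SE 0.182, adjusted p = 0.0323, limma), with 6 of 9 LungMets arrays above every PT array and 6 of 9 above every NL array. Cd84, an adhesion receptor of the SLAM family on leukocytes, gave 4.72 to 5.94 on the PT arrays (median 5.54), 5.60 to 6.43 on the LungMets arrays (median 6.07) and a mean of 5.22 in NL, a difference of 0.61 (SE 0.158). All 9 LungMets arrays lay above the NL arrays. Tlr13, an endosomal sensor of bacterial ribosomal RNA, rose by 0.57 (SE 0.132), with 8 of 9 above NL. The cultured cells held Fcgr3 at 4.20 and 4.84, Cd84 at 3.50 and 3.27, and Tlr13 at 4.62 and 4.68, below the tumors in each case.

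Clca3a1, a secreted regulator of chloride channels, had the largest rise of the 14, with 3.73 to 5.60 on the PT arrays (median 4.40), 4.44 to 6.44 on the LungMets arrays (median 5.30), a mean of 3.65 in NL and 7.81 in NMG. Its difference was 0.95 (SE 0.274, adjusted p = 0.0300, limma) and was not called without PT 5 and LungMets 9 (0.86, adjusted p = 0.0545). Frzb gave 3.54 to 4.47 on the PT arrays (median 3.98) and 4.13 to 5.54 on the LungMets arrays (median 4.57), a difference of 0.59 (SE 0.166), with 7 of 9 LungMets arrays above NL. The other 9 genes rose by 0.18 to 0.39, and Prdm14 had a mean of 2.80 in LungMets. As a reference for low signal in female mice, the mean of 3 Y-linked genes was 2.86 to 3.23 across the PT and LungMets arrays. Leaving out PT 5 and LungMets 9 raised the number of such rises to 34, and leaving out single arrays gave 7 without LungMets 7, 8 or 9 without LungMets 1, 2, 4, 6 or 8 or PT 2 or 3, and 36 without LungMets 9. Over 2-fold, these were Muc4, Saa3 and Serpina3n, named after their values were seen. Muc4, a membrane mucin, gave 3.19 to 10.40 on the PT arrays (median 3.87), 3.96 to 10.46 on the LungMets arrays (median 8.46) and a mean of 3.83 in NL, and its difference was 2.30 with all arrays (adjusted p = 0.208, limma) and 3.24 without the pair (adjusted p = 0.0332). PT 6 reached 10.40, as high as any metastasis but 1. Muc4 was called in 3 of 29 other settings, and 2 of its 3 probe sets moved this way. Saa3, an acute-phase protein, differed by 1.26 with all arrays (adjusted p = 0.115) and by 1.74 without the pair (adjusted p = 0.00859), and all 9 LungMets arrays lay above NL.

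Interferon-induced genes rose in 5 of 13 measured members, against 7.34% of all genes called higher. Their median difference was 0.53, against -0.02 for all genes. Ifit1, Ifit2 and Ifit3 encode proteins that bind foreign RNA, Rsad2 encodes viperin, an antiviral enzyme, and Rtp4 a receptor transport protein. These genes are induced through interferon-stimulated response elements. The 250 bases before the start are shown for the 3 called members found to hold a match to GAAANNGAA. Each match on either strand is in capitals. The sequences are from RefSeq on GRCm38.p6 and are written in the direction of the gene: Ifit1 at chr19:34640639-34640888 (+ strand), Ifit3 at chr19:34583279-34583528 (+ strand) and Rsad2 at chr12:26456453-26456702 (- strand).
Ifit1: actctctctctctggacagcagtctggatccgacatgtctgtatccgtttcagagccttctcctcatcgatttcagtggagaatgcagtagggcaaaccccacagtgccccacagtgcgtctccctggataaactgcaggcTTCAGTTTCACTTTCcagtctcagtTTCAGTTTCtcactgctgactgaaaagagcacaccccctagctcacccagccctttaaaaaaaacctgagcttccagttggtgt
Ifit3: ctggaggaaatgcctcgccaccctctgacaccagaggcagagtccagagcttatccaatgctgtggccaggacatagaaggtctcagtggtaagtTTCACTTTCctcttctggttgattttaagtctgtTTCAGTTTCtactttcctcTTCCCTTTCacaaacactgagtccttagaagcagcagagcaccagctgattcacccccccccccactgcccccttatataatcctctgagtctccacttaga
Rsad2: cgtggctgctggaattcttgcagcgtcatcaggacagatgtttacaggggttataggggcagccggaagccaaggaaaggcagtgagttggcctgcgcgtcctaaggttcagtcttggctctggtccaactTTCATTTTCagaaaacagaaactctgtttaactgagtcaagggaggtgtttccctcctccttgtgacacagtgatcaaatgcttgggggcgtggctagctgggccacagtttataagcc

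Ifit1 and Ifit3 held 3 matches each and Rsad2 held 1. The matches lay 84 to 109 bases before the start in Ifit1 and 102 to 155 bases in Ifit3, counted to the first base of each match, and those of Ifit1 partly overlap. In all, 7.13% of 32851 promoter windows of this length held the motif, as did 3 of 5 windows of called members. By gene, 3 of the 4 called members and 5 of 8 list members found in the table held it. Ifit2 had no match in its 2 windows. A match is a run of letters and does not show binding.

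Ifit3 gave 5.72 to 7.70 on the PT arrays (median 6.80), 7.64 to 8.93 on the LungMets arrays (median 8.20) and 8.07 to 8.49 in NL. The difference was 1.45 (SE 0.264, adjusted p = 0.00187, limma), and 8 of 9 LungMets arrays lay above every PT array. PT 6 (7.70) was as high as PT 5 (7.69), and LungMets 9 (7.91) lay above LungMets 5 (7.64). Rsad2 gave 6.52 to 8.46 on the PT arrays (median 7.75), 7.95 to 11.04 on the LungMets arrays (median 8.71) and a mean of 8.17 in NL, a difference of 1.22 (SE 0.315, adjusted p = 0.0165). LungMets 7 alone stood at 11.04, and the next highest was 8.97. Ifit2 rose by 1.11 (SE 0.276), Ifit1 by 0.98 (SE 0.254) and Rtp4 by 0.71 (SE 0.213). All 5 rose without PT 5 and LungMets 9 as well, and 1 passed at the second date without that pair. For Ifit1 6 of 9 LungMets arrays lay above every NL array, and for Ifit2, which was NL-high, 0 of 9 did. The spheres held Ifit1 at 8.05 and the monolayer at 4.61. Genes of antigen presentation passed in 0 of 12 members, with a median of 0.35. Over all genes 7.34% were called higher and 3.98% lower.

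Cartilage matrix genes were the list with the largest share of falls, 7 of 16 measured members, with a median difference of -0.95. Over all genes 3.98% were called lower. Without PT 5 and LungMets 9 the list had 8 falls and 1 rise, against 7.21% lower and 9.49% higher over all genes. PT held collagens of cartilage at high signal. Col2a1, the main collagen of cartilage, gave 7.57 to 12.41 on the PT arrays (median 11.86), 6.71 to 11.99 on the LungMets arrays (median 7.89), and means of 3.74 in NL and 3.96 in NMG. It fell by 2.76 (SE 0.665, adjusted p = 0.0112, limma), and the difference was -3.58 without PT 5 and LungMets 9. The lowest PT array was PT 5 and the highest LungMets array was LungMets 9, and all LungMets arrays lay above NL. The monolayer held Col2a1 at 9.50 and the spheres at 6.56. Col11a1, a minor fibrillar collagen, gave 9.47 to 12.03 on the PT arrays (median 11.28) and 7.20 to 11.41 on the LungMets arrays (median 9.72), and fell by 1.52 (SE 0.422). Col11a2 (-1.65, SE 0.421), Col9a3 (-1.47, SE 0.391) and Col9a2 (-1.33, SE 0.304), further minor collagens, fell with them. Sox9, the transcription factor that drives cartilage collagens, gave 9.06 to 10.30 on the PT arrays (median 9.78), 8.74 to 9.33 on the LungMets arrays (median 9.04) and 3.43 to 3.92 in NL, and fell by 0.68 (SE 0.120). Comp fell by 0.51 (SE 0.128). All 7 were NL-low.

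Genes of the fibroblast matrix fell in 5 of 21 members (median -0.73), and in 10 without PT 5 and LungMets 9, where 1 rose. Over all genes 3.98% were called lower, and without these 2 arrays 7.21% lower and 9.49% higher. Thbs2, a matricellular thrombospondin, gave 4.84 to 9.88 on the PT arrays (median 8.95), 4.21 to 8.79 on the LungMets arrays (median 5.16) and a mean of 3.63 in NL. It fell by 2.80 (SE 0.674, adjusted p = 0.0111, limma), with 4 of 9 LungMets arrays below every PT array. The others that fell were Lum, a proteoglycan that binds collagen fibrils (-2.56, SE 0.607), Col12a1, a fibril-associated collagen (-2.18, SE 0.639), Fap, a protease of activated fibroblasts (-1.67, SE 0.409), and Postn, which encodes periostin (-0.80, SE 0.208). Of the 4 Col12a1 probe sets, 2 moved this way. For Lum and Fap most LungMets arrays lay below the NL arrays too, 7 of 9 and 6 of 9. Col1a1, the main collagen of fibroblasts, gave 8.12 to 11.41 on the PT arrays (median 10.57) and 7.79 to 11.83 on the LungMets arrays (median 8.72), with a difference of -1.08 (adjusted p = 0.175) that was called without the pair (-1.64, adjusted p = 0.00467) and in some other alternatives. Outside the lists, C1qtnf3, a secreted protein (-2.71, SE 0.848), Cilp, a matrix protein of cartilage (-2.52, SE 0.537), and Kcne3, a potassium channel subunit (-2.37, SE 0.578), fell, and these 3 were NL-low. The list mean lay at 8.58 to 9.99 on the LungMets arrays other than LungMets 9 and at 9.09 to 9.39 in NL.

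Genes of glycolysis and hypoxia gave 4 falls and 2 rises among 19 members (median -0.36). Over all genes 3.98% were called lower and 7.34% higher. Ldha and Pgk1 encode enzymes of the lower glycolytic pathway, Pdk1 a kinase that inhibits pyruvate dehydrogenase, and Car9 a carbonic anhydrase that is a common marker of hypoxic tumor cells. Hypoxia-inducible factors bind ACGTG and GCGTG. Windows of Ldha, Pgk1 and Car9 are shown because they held ACGTG, which no window of Pdk1, the other fall, did. They give the 250 bases before the start, with each ACGTG on either strand in capitals. The sequences are from RefSeq on GRCm38.p6: Ldha at chr7:46845554-46845803, Pgk1 at chrX:106186850-106187099 and Car9 at chr4:43506776-43507025, all on the + strand.
Ldha: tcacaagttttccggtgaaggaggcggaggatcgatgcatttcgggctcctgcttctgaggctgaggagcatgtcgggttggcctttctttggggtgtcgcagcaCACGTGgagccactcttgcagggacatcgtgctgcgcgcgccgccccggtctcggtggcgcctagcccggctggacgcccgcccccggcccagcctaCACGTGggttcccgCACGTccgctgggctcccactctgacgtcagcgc
Pgk1: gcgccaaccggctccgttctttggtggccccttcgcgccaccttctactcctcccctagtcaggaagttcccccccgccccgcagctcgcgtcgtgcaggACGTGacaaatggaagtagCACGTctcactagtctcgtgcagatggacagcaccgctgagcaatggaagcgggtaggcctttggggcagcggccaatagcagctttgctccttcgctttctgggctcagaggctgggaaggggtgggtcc
Car9: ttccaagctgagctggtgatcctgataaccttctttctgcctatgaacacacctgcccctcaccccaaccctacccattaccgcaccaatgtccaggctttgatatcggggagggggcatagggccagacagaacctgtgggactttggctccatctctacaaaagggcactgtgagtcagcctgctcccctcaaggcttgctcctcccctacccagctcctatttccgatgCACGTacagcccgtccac

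Counting each strand, this Ldha window held 5 matches, of which 4 are the 2 strands of 2 palindromic sites. The other of the 2 Ldha windows held 0. Pgk1 held 2 and Car9 1, which began 18 bases before the start. ACGTG was found in 16.6% and GCGTG in 28.2% of all 32851 windows. Of the 18 list genes in the table, 14 held ACGTG in at least 1 window, a count by gene and not by window. By window, 5 of 9 windows of called members held ACGTG and 4 of 9 held GCGTG. Pfkfb3, which rose, held it, and Pdk1, which fell, held only GCGTG.

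Car9 gave 5.77 to 7.26 on the PT arrays (median 6.69), 4.52 to 6.56 on the LungMets arrays (median 5.66) and 3.76 to 3.98 in NL. It fell by 0.95 (SE 0.249, adjusted p = 0.0175, limma), with 5 of 9 LungMets arrays below every PT array. Pdk1 gave 8.31 to 8.91 on the PT arrays (median 8.51) and 7.36 to 8.49 on the LungMets arrays (median 7.95), and fell by 0.60 (SE 0.128), with 7 of 9 below every PT array. PT 5 (8.51) lay at the PT median for Pdk1, and LungMets 6 and LungMets 9 were the highest metastases, at 8.49 each. Pgk1 gave 11.84 to 12.59 on the PT arrays (median 12.34) and 11.60 to 12.28 on the LungMets arrays (median 11.89), a difference of -0.45 (adjusted p = 0.0073). Ldha fell by 0.42 (SE 0.105), from a PT median of 11.79 to a LungMets median of 11.20. Without PT 5 and LungMets 9 there were 8 falls, against 7.21% of all genes called lower. Among them was Slc2a1, the glucose transporter GLUT1 (-0.62, adjusted p = 0.0286, limma). The rises were Pfkfb4 (0.98, SE 0.161), which was NL-high, and Pfkfb3 (0.70, SE 0.179), which encode enzymes that set the level of fructose 2,6-bisphosphate. Of the 2 Pfkfb3 probe sets, 1 moved this way. Vegfa, the vascular growth factor, had a difference of 0.38 that did not pass the test. Car9, Ldha and Pgk1 were NL-low, and the part of the lung in the nodule in these falls was not tested.

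**Figure D4:**
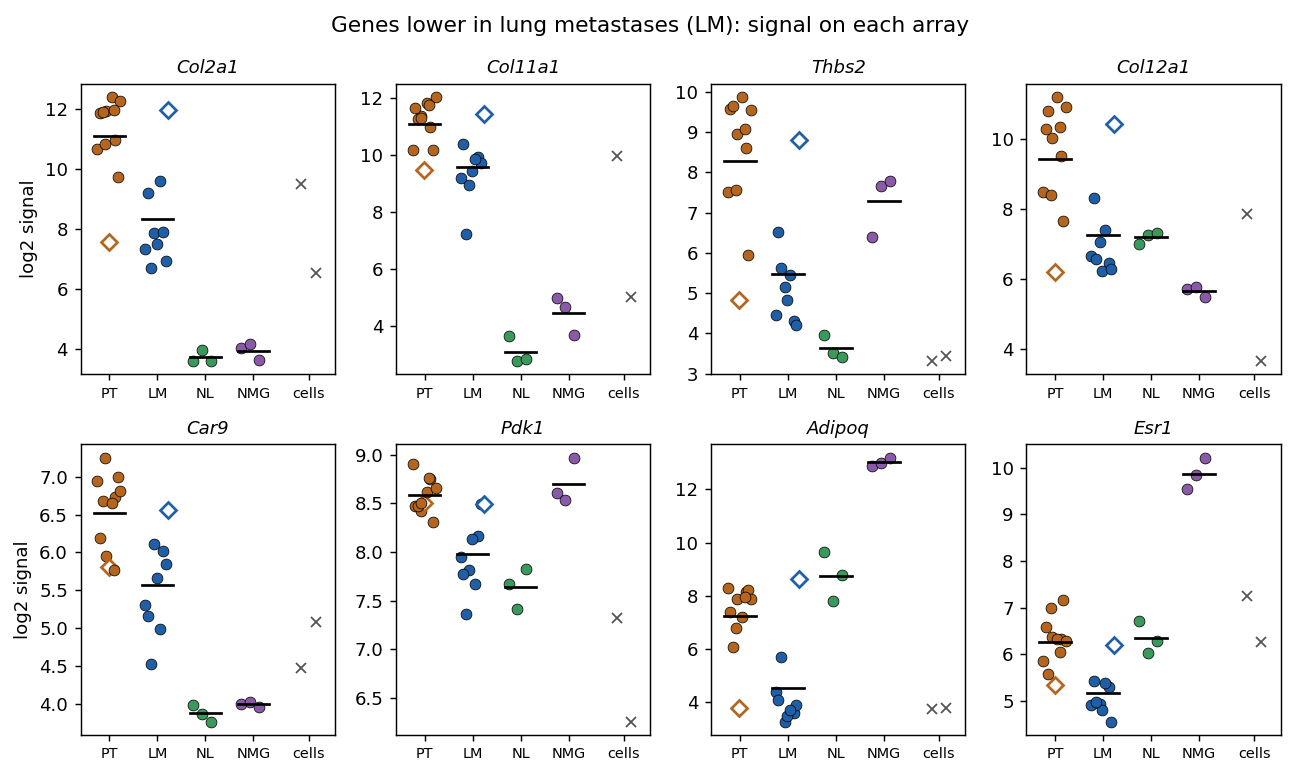
Log2 signal (vertical axis) on each array for 8 genes called lower in LungMets (LM), with 1 point per array, a bar at the group mean, open diamonds for PT 5 and LungMets 9 and crosses for the monolayer (left) and spheres (right). Col2a1 and Col11a1 lie above NL on all LungMets arrays, and Adipoq and Esr1 lie below NL on 8 of 9.

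The 37 falls that were not lower in normal lung had a median size of -0.35, and 30 of them were under 0.5 in size. Over 2-fold there were 4: Car3, Adipoq, Fabp4 and Esr1. Adipoq, the adipocyte hormone adiponectin, gave 3.77 to 8.30 on the PT arrays (median 7.88), 3.24 to 8.62 on the LungMets arrays (median 3.88), and 9.64, 7.80 and 8.76 in NL. It fell by 2.73 (SE 0.652, adjusted p = 0.0106, limma), with differences of -4.11 at the first date and -1.78 at the second. LungMets 9 held the highest value of all tumor arrays and PT 5 the lowest of the PT arrays, and 8 of 9 LungMets arrays lay below NL. Car3, a carbonic anhydrase of fat and muscle, fell by 3.04 (SE 0.844), from a PT median of 10.74 to a LungMets median of 6.95, with a mean of 11.88 in NL. Fabp4, the fatty acid carrier of adipocytes and some endothelium, fell by 1.92 (SE 0.530), from 10.50 to 7.99, with 10.79 in NL. NMG held these 3 genes at means of 13.03 to 14.22. Adipocyte genes as a list gave 3 falls and 1 rise of 9 members (median -0.68), with 5 falls without PT 5 and LungMets 9. Over all genes 3.98% were called lower and 7.34% higher, and 7.21% lower without these 2 arrays. The rise was Scd1, a desaturase of fat cells and of type 2 cells (1.19, SE 0.185), with 8 of 9 LungMets arrays above every PT array. The adipocyte list averaged 7.71 to 8.84 in NL, above the LungMets arrays other than LungMets 9.

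Esr1, the estrogen receptor alpha, gave 5.34 to 7.16 on the PT arrays (median 6.34), 4.56 to 6.21 on the LungMets arrays (median 4.99), and 6.72, 6.03 and 6.28 in NL. It fell by 1.10 (SE 0.228, adjusted p = 0.00447, limma), with differences of -1.14 at the first date and -1.06 at the second. Here 6 of 9 LungMets arrays lay below every PT array and 8 of 9 below every NL array. The NL mean lay only 0.08 above the PT mean, and it lay below the PT mean without PT 5 and LungMets 9, so that the place of Esr1 among these falls rests on those arrays. The monolayer held Esr1 at 7.25 and the spheres at 6.28, and 2 of its 3 probe sets moved the same way. Esr1 was the only 1 of 7 luminal mammary genes to be called, against 3.98% called lower over all genes. Below 2-fold, the largest such falls were Igdcc4, a membrane protein of the immunoglobulin superfamily (-0.80, SE 0.202), and Zer1, a substrate receptor of an E3 ligase (-0.55, SE 0.134), named after their values were seen. For Igdcc4 all 9 LungMets arrays lay below NL, although its NL mean was also below the PT mean without PT 5 and LungMets 9, and for Zer1 8 of 9 did. Of the 4 Igdcc4 probe sets 3 moved this way. Leaving out PT 5 and LungMets 9 raised the number of such falls to 97, and leaving out single arrays gave 22 to 24 without LungMets 1, 2, 4 or 8 or PT 3, 66 without PT 5 and 67 without LungMets 9.

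Genes of cell state, which are often compared between primary tumors and metastases, gave few calls with all arrays and more without PT 5 and LungMets 9. Over all genes 7.34% were called higher and 3.98% lower, and 9.49% and 7.21% without these 2 arrays. Of 21 epithelial genes 1 rose, Krt7, a keratin that lung epithelium also makes (2.31, SE 0.525, NL mean 10.68), while 4 rose without the pair and 4 at the first date alone. Epcam, the epithelial adhesion molecule, gave 7.01 to 13.36 on the PT arrays (median 11.47) and 9.64 to 13.26 on the LungMets arrays (median 11.27), a difference of 0.01 (SE 0.749, adjusted p = 0.998, limma), which turned to -0.03 with each array centred on its median. Cdh1, which encodes E-cadherin, gave 6.18 to 11.35 on the PT arrays (median 9.42) and 9.24 to 11.49 on the LungMets arrays (median 10.63), a difference of 1.38 (SE 0.562, adjusted p = 0.122) that was called without PT 5 and LungMets 9 (1.76, adjusted p = 0.0341). The PT arrays spread over more than 5 log2 units for both genes, and the monolayer held Cdh1 at 4.01 and Epcam at 5.62. Of 15 mesenchymal genes 1 fell, Twist2, a bHLH factor (-0.73, SE 0.208), and 2 fell without the pair. Vim, which encodes vimentin, gave 10.54 to 12.80 on the PT arrays (median 12.49) and 10.66 to 12.66 on the LungMets arrays (median 12.04), a difference of -0.27 (adjusted p = 0.656). Krt8 and Krt14, keratins of luminal and basal cells, had differences of 0.79 and -0.62, and Gata3, a luminal factor, 0.23, none of which passed the test. Without the pair Krt14 was called, with a difference of -1.15 (adjusted p = 0.0303, limma).

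Of 19 proliferation genes 1 fell, Tyms, thymidylate synthase (-0.46, SE 0.145), with a list median of -0.37 and an NL minus PT median of -3.90. Of the 4 Tyms probe sets 3 moved this way. The list averaged 9.11 to 9.68 on the PT arrays, 8.11 to 9.35 on the LungMets arrays and 5.64 to 6.15 in NL. Genes of amino acid supply and the stress response passed in 0 of 15 members (median -0.22) and 16 genes linked to lung colonization in 0 (median -0.10), against 7.34% higher and 3.98% lower over all genes. Without PT 5 and LungMets 9 the first list had 1 rise and 4 falls and the second 0 rises and 2 falls, against 9.49% and 7.21%. Among the colonization genes, Tnc, a matrix protein, had a difference of -1.45 (adjusted p = 0.0571) and Vcam1, an adhesion molecule, of 1.04 (adjusted p = 0.140). Matrix metalloproteinases and their inhibitors gave 2 rises of 16, Mmp8 and Timp3 (1.49, SE 0.419), the latter NL-high, and 2 falls as well without the pair. The study's panel of stem cell and transition genes gave 9 rises and 0 falls of 86 measured genes, and all 9 were NL-high. Without the pair the panel gave 16 rises and 7 falls.

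Calls in the lymphoid and chemokine lists are set beside 7.34% of all genes called higher and 3.98% called lower. B lymphocyte genes passed in 0 of 9 members, and their mean ran from 3.79 to 8.16 on the PT arrays and from 4.96 to 8.04 on the LungMets arrays, with LungMets 9 highest. Of 13 T and natural killer cell genes 2 rose, Gzma, a granzyme (1.75, SE 0.444), and Ccl5, a chemokine (1.25, SE 0.403), both NL-high. Ccl5 was not called without PT 5 and LungMets 9 (1.22, adjusted p = 0.0585), and the list then had 1 rise and 1 fall. Chemokine genes gave 2 rises and 3 falls of 17. The rises were Cxcl15 and Ccl17, a ligand of CCR4 (0.89, SE 0.159). Ccl11, the eosinophil chemokine eotaxin, fell by 1.11 (SE 0.279). Cxcl5, a neutrophil chemokine, fell by 0.60 (SE 0.132) at a LungMets mean of 2.83, near the 2.86 to 3.23 of the mean of the Y-linked genes. Cx3cl1, a ligand on endothelium, fell by 0.55 (SE 0.174).

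**Figure D5:**
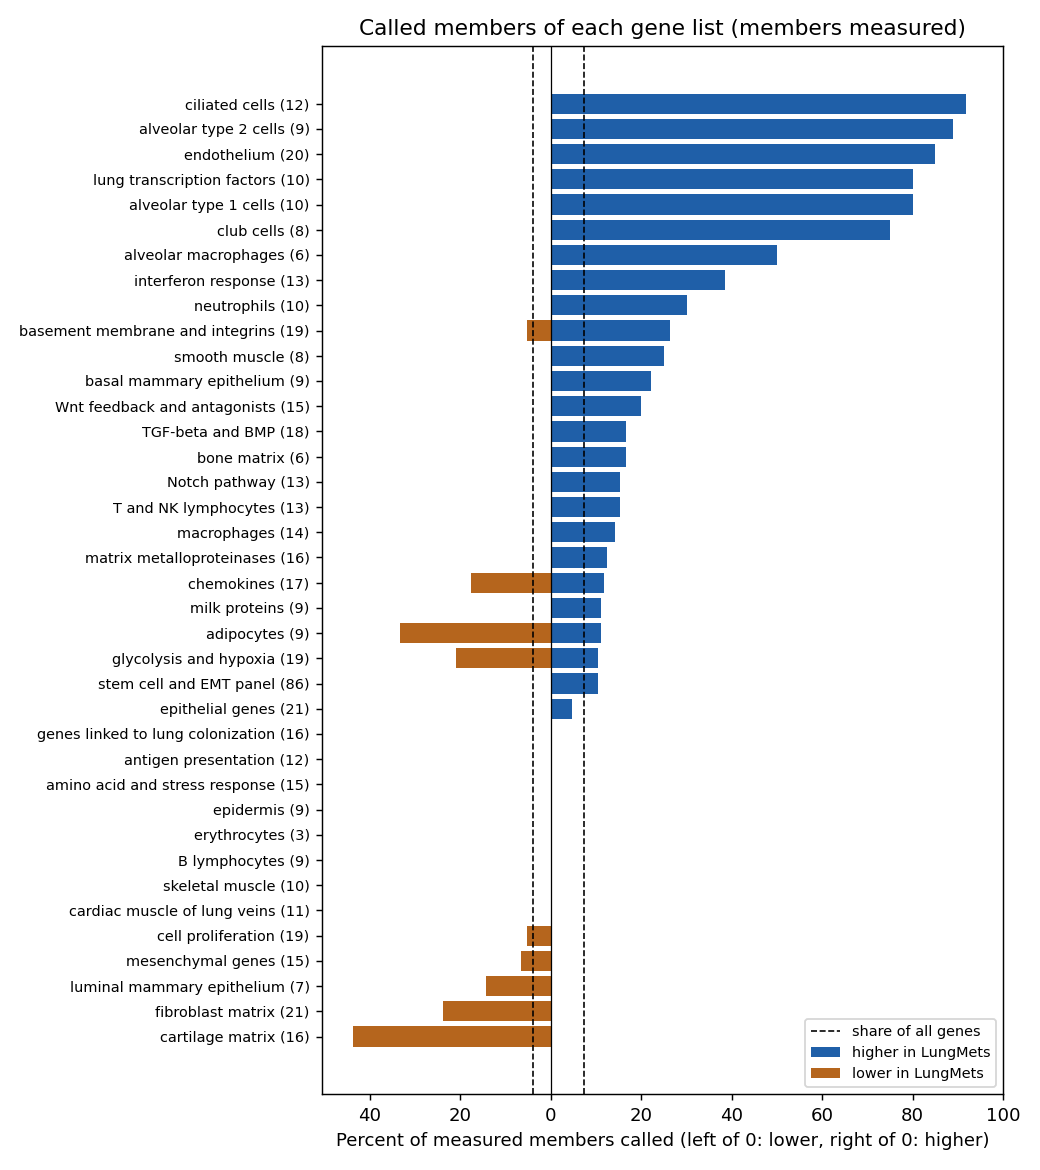
Percent of the measured members of each of 38 gene lists (horizontal axis) called higher (right of 0) or lower (left of 0) in LungMets, with the number measured in parentheses and dashed lines at the 7.34% and 3.98% called over all genes. The 6 longest bars to the right are lists of lung epithelium, lung transcription factors and endothelium, from 11 of 12 ciliated cell genes to 6 of 8 club cell genes, and the longest to the left is cartilage matrix, with 7 of 16.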

How the data were processed

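Total RNA of whole tissue was hybridised to Affymetrix mouse GeneChip arrays. The values analysed are log2 signals that the authors made with RMA in Partek Genomic Suite 6.6 and deposited as 1 table of 45101 probe sets. RMA corrects background, quantile normalises and summarises probes, so that a shift shared by all genes of an array is removed, and the number of arrays limits the precision. Groups were taken from the source labels. The 34958 probe sets with 1 gene symbol were reduced to 18194 genes by keeping, for each symbol, the probe set whose mean over 26 tissue arrays was highest, while 932 probe sets with several symbols and 9211 with none listed were left out. No 2 arrays held identical values, and the highest correlation between any 2 tissue arrays was 0.995.

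LungMets and PT were compared with limma 3.58.1 in R 4.3.3 (lmFit and eBayes) with the date in the labels as a block, with Benjamini-Hochberg adjustment across the 18194 genes and a threshold of 0.05. The first date held 4 PT and 4 LungMets, and the second 7 PT and 5 LungMets. NL-high and NL-low mean an NL mean 1 or more above or below the PT mean. On simulated data for this comparison with 100 genes changed by a log2 of 1 and 100 by a log2 of 2, 90 and 99 were recovered, with 8 unchanged genes called of 18194 in all. The genes named are the largest changes over 2-fold of each NL class, up to 4 called members per list, and fixed markers; others are said to be chosen after their values were seen. The members and gene lists were chosen with earlier results of these data known. Promoters were searched in Python 3.11.15. The study's panel of stem cell and transition genes is a list of the study itself. The alternatives tried are given in the closing section.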

Additional observations from a re-analysis of the deposited data

Results flagged for a closer look

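In groups of 4 to 10 arrays, the gap between the most extreme array and the next was divided by the range of the group, for 126 gene and list values over the 9 LungMets arrays. The 11 PT arrays are too many for this rule. Of the 126 values 38 passed the critical value, where chance flags about 5% of groups, and in 37 of them the extreme array was LungMets 9. Most of the genes were named because they were called between LungMets and PT, and LungMets 9 was already known to resemble PT. An array like PT would be extreme for such genes, and the values are not independent. The count therefore adds no support of its own.

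LungMets 9 stood below the other metastases for the lung epithelium list mean, at 6.28 against 8.91 for the next array (gap over range 0.646). The same was seen for the secreted products Scgb1a1 (0.775), Sftpc (0.842), Sftpa1 (0.822), Sftpd (0.791), Cxcl15 (0.787) and Scgb3a2 (0.733), and for Cyp2f2 (0.693), Slc34a2 (0.720), Ager (0.758), Cldn18 (0.641), Hopx (0.542) and Aldh1a7 (0.598). Ciliated cell genes gave 0.564 for Dynlrb2, 0.539 for Tppp3, 0.515 for Fam183b and 0.561 for Tmem212. Transcription factors of the lung gave 0.580 for Tcf21, 0.526 for Tbx4 and 0.549 for Tbx2. Further low values were Lyz2 (0.564), Muc1 (0.628), Krt7 (0.579), Itgb6 (0.575), Bmp4 (0.525), Retnla (0.695) and Tc2n (0.672).

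LungMets 9 stood above the other metastases for Adipoq (0.549), for the matrix genes Thbs2 (0.496), Lum (0.497), Cilp (0.518), Col12a1 (0.501) and Col11a2 (0.723), and for Kcne3 (0.636), Twist2 (0.560), Ccl11 (0.632) and Krt14 (0.683). Rsad2 alone had another extreme array, LungMets 7 at 11.04 against 8.97 for the next (0.671).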

How the results depend on the processing

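Of 110 named genes that were called, 105 were also called without PT 5 and LungMets 9, 110 without the date block, 81 at the first date, and 65 at the second date without those 2 arrays, and 0 of them changed direction there or with the second date alone. Against 2061 calls (1336 higher, 725 lower, 14 rises not higher in NL and 37 falls not lower in NL), leaving out PT 5 and LungMets 9 gave 1311 lower, 34 such rises and 97 such falls. The first date alone gave 368 lower. The second date alone gave 0 calls in limma, 0 higher and 0 lower, hence 0 such rises and 0 such falls, with 2670 genes at an unadjusted p under 0.05. Without the 2 arrays the second date gave 1081 calls, 755 higher and 326 lower, with 1 such rise and 12 such falls. A fit over all 26 tissue arrays gave 24 such rises. Only genes above the median signal gave 1297 calls, 629 of them higher, with 2 such rises. Centring each array gave 1145 lower, and a further quantile normalization gave 24 such falls. Array weights gave 3866 calls, 2105 higher and 1761 lower, with 100 such rises and 196 such falls. A fold change over 2 left 530 calls, 487 higher and 43 lower, with 0 such rises and 4 such falls. Another cut took called rises with an NL mean at least 1 below the LungMets mean, which gave 4. Called falls with an NL mean at least 1 above the LungMets mean numbered 8. This cut does not use the PT mean, so that these genes need not be among the 14 and 37. Leaving out single arrays gave 1372 to 2601 calls, 975 to 1571 higher and 397 to 1083 lower. It gave 7 to 36 rises not higher in NL and 22 to 67 falls not lower in NL. With the replicate number as a replicate block the test gave 2299 calls, with 31 such rises and 69 such falls. The labels do not say what a number shares across groups, so that pairing was not assumed: 8 of 9 same-numbered pairs deviated together at a correlation over 0.1 (-0.00 to 0.54), and 1 of 9 LungMets arrays matched its own number best. Some uncalled differences turned: Gata3 to -0.20 at the first date and -0.0532 with array weights, Vim to 0.0085 and Epcam to -0.00306 at the second date, and Epcam to -0.0327 after centring and to between -0.40 and 0.23 without single arrays. Named calls that held in only part of 29 or 30 other settings included Ccl5 (11), Tgfbr2 (12), C1qtnf3 (13), Tyms (14) and Col12a1 (16). These settings leave out the date subsets and the fold-change cut. The cause was not tested in any of these. Low signals limit the rest, since the mean of 3 Y-linked genes was 2.86 to 3.23 on the PT and LungMets arrays of female mice.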

Other observations

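Only 20 called genes did not overlap at all between the 9 LungMets and 11 PT arrays, PT 5 and LungMets 9 included, 12 higher and 8 lower in LungMets. They were chosen after their values were seen, and 11.3% of all genes were called. Of the 12, 9 were NL-high and 3 lay between. Cpm, a membrane carboxypeptidase of macrophages and lung epithelium, gave 3.85 to 6.06 on the PT arrays and 6.11 to 8.32 on the LungMets arrays, a difference of 1.81 (SE 0.287) with an NL mean of 10.10. Hcar2, a receptor for hydroxybutyrate and niacin, rose by 0.82, Ccrl2, a chemokine-like receptor, by 0.90 and Sirpa, the myeloid receptor for CD47, by 0.56. Sirpa gave 7.32 to 7.87 on the PT arrays and 7.88 to 8.44 on the LungMets arrays, so that the gap between the groups was small.

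Of the 8 genes that were lower without overlap, 5 were NL-low and 3 lay between. Fgd1, an activator of the GTPase CDC42, gave 7.65 to 8.47 on the PT arrays and 6.61 to 7.61 on the LungMets arrays, a difference of -0.71 (SE 0.137), with an NL mean of 5.52. Folr2, a folate receptor of tissue-resident macrophages, gave 6.24 to 7.10 on the PT arrays and 5.57 to 6.20 on the LungMets arrays, a difference of -0.65 (SE 0.113), with NL at 6.27. Ssr2, a subunit of the translocon-associated complex, fell by 0.53 and Smc6, a subunit of a DNA repair complex, by 0.37.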
